A study of Mus musculus with 6 samples.

Results

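The interferon-inducible p200 genes are a cluster of neighbouring genes on mouse chromosome 1. Measured here were Ifi203, Ifi204, Ifi207, Ifi209, Ifi211, Mndal and Aim2, chosen by name, which made 7 of the 22556 genes listed in the pancreas RNA-sequencing tables. The 6 libraries came from wild-type C57BL/6 male mice of 8 weeks, 2 per group. Saline mice received saline only. AP mice (acute pancreatitis) received 10 hourly injections of caerulein, a peptide that overstimulates pancreatic acinar cells. The third group, called polyI:C+AP here, consisted of polyI:C-pretreated AP mice, which were also given polyI:C, a synthetic double-stranded RNA that elicits type I interferon, at 10 mg/kg before the caerulein. The study's methods place polyI:C either 1 or 8 h before caerulein without assigning an interval to these mice. Pancreases were collected 24 h after the first caerulein injection, and polyI:C without caerulein was not among the groups. The labels name 2 samples per group. Each p-value of the main fit measures the spread between samples within groups, pooled over all groups and moderated over all genes.

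Most p200 proteins carry a HIN domain, which binds DNA, and many carry a pyrin domain, which binds other pyrin proteins. Aim2 senses DNA in the cytosol and assembles an inflammasome with the adaptor Pycard and the protease Casp1. Ifi204 is related to human IFI16 and has been linked to DNA sensing through the adaptor Sting, which is listed here as Tmem173. Many of these genes respond to type I and type II interferon, and macrophages and other leukocytes are known to express them.

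TPM values (transcript abundances scaled for gene length and library size) were taken as deposited. From the spacing of low values, the listed genes held an estimated 3311909 to 10825944 assigned reads per library, fewest in the saline mice. There, 1 read in a gene of median length was worth 0.217 and 0.264 TPM. Reads of unlisted genes are not in these estimates, which do not give the sequencing depth of a library. Acinar marker genes were present in every library, but their level differed by group. The 4 of 14 fixed markers that were listed summed to 964 and 775 TPM with saline. The sum was 235 and 187 TPM with AP and 478 and 518 TPM with polyI:C+AP. Ptf1a, 1 of the 4, ran otherwise, with means of 42.6 TPM with saline, 49.3 TPM with AP and 82.8 TPM with polyI:C+AP. The part of these differences in the other TPM values was not tested. A pair of libraries stood apart from their group. AP replicate 2 carried more B cell marker RNA (Ms4a1 at 7.91 TPM against 1.08 in AP replicate 1). PolyI:C+AP replicate 2 carried the most Jchain, a gene of antibody-secreting cells, at 63.7 TPM against 1.13 to 10.8 TPM elsewhere, and intestinal transcripts, such as Vil1 at 162 TPM, against 1.74 to 4.44 TPM in the other 5 libraries. These intestinal genes were picked after their values were seen.

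The cluster spanned 681 kb in GENCODE M21 (GRCm38), and the tables listed 13 protein-coding genes there, all of the p200 family. Besides the 7 members these were Ifi202b, Ifi205, Ifi206, Ifi208, Ifi213 and Ifi214. Pydc3 and Pydc4 were looked for by name and were not analysed here. Aim2 (chr1:173350879-173466040) lies at one end and Ifi209 (chr1:173630917-173647928) nearest to it among the members, both on the plus strand. Ifi207 (chr1:173723427-173741747), Ifi204 (chr1:173747293-173766943), Ifi211 (chr1:173896345-173913046), Ifi203 (chr1:173920407-173942672) and Mndal (chr1:173849126-173942491) are on the minus strand. The annotated span of Mndal encloses Ifi211 and runs into Ifi203, with which it shares 37 exonic bases.

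Neighbours in the cluster share transcript sequence, which bears on how reads are assigned. Of the stretches of 100 bases in the annotated transcripts of Ifi211, 56.9% also occurred in another gene, 37.2% in Ifi205 and 19.6% in Ifi204. The share was 16.9% for Ifi209, all of it with Ifi214, 10.7% for Ifi204 and 6.38% for Mndal. It was 2.84% for Ifi203, 0.79% for Ifi207 and 0 for Aim2. How reads that match several genes were counted is not given in the sources used here, so the levels of Ifi211 in particular are uncertain. The following are the first 120 bases of the longest coding stretch within 1 exon that Ifi211 shares base for base with each of these neighbours. They are shown because a read that lies wholly within such a run matches both genes. The study's methods name paired reads, so a mate or read end outside the run may still tell the genes apart. The first is from a run of 423 bases in exon 5 (chr1:173901923-173902042, minus strand, GRCm38), which Ifi205 also holds. The second is from a run of 199 bases in exon 2 (chr1:173907742-173907861, minus strand), which Ifi204 also holds.
Ifi211 and Ifi205, exon 5: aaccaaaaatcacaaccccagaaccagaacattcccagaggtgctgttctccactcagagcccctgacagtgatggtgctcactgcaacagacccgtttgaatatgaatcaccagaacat
Ifi211 and Ifi204, exon 2: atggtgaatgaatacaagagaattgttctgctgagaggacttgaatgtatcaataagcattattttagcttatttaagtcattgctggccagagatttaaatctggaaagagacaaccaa

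**Figure D1:**
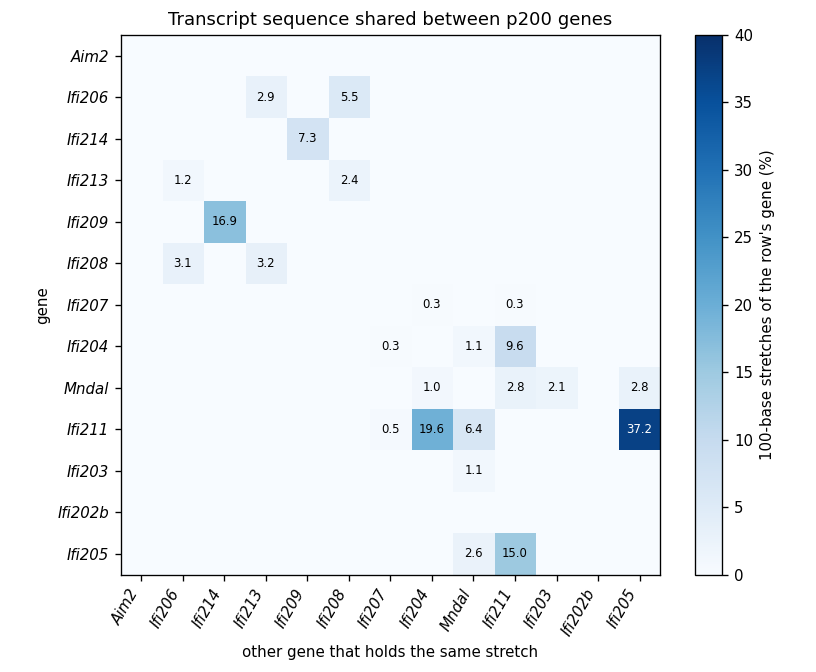
Transcript sequence shared between the 13 listed p200 genes, in order along the chromosome. Each cell gives the percentage of the 100-base stretches of the row's gene that occur in the column's gene. The darkest cell, 37.2%, is Ifi211 with Ifi205, and the rows of Aim2 and Ifi202b are empty.

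The promoters of several members were close copies of each other. Windows of 300 bases (250 before and 50 after an annotated start) came from RefSeq (GRCm38.p6) for 6 of the 7 members, with 8 windows in all. Ifi204 was not matched. In pairwise alignment, the windows of Ifi203 (its second) and Mndal (its first) were 94.0% identical, and those of Ifi207 and Ifi211 were 87.0% identical. The other pairs between genes ran from 53.7% to 63.7%.

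The letters GAAANNGAA, the core of an interferon response element, were searched on both strands. They occurred in a window of Ifi203, Ifi207, Ifi211 and Mndal, which made 4 of the 6 members with a window, while 9.76% of the 27025 genes in the RefSeq table had a match. Of the 6 other p200 genes of the locus, 5 had a match as well, so a match was not particular to the members. The match began 35 bases before the start in Ifi203, 41 in Ifi207, 37 in Ifi211 and 36 in the first Mndal window. The second Mndal window had a match on the opposite strand, and the first Ifi203 window had none. TTCNNNGAA, the core of a STAT site, was in no member's window and in 9.55% of genes. The 100 bases before the start follow for these 4 windows and for Ifi209 and Aim2, whose windows held no match. Capitals mark GAAANNGAA. The windows are Ifi203 (chr1:173942493-173942592), Mndal (chr1:173880188-173880287), Ifi207 (chr1:173741810-173741909) and Ifi211 (chr1:173913047-173913146) on the minus strand, and Ifi209 (chr1:173630759-173630858) and Aim2 (chr1:173420504-173420603) on the plus strand.
Ifi203: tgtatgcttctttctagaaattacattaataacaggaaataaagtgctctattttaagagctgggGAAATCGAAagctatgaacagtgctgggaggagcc
Mndal: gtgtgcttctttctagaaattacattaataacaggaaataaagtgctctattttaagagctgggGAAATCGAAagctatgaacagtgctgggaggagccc
Ifi207: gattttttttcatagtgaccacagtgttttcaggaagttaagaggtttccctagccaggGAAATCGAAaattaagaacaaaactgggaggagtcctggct
Ifi211: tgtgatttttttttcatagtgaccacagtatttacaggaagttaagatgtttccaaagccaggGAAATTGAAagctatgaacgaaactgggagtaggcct
Ifi209: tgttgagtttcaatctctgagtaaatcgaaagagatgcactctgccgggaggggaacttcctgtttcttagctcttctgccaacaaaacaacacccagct
Aim2: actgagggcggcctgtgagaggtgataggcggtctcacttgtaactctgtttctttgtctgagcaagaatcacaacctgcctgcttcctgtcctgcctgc
The Ifi209 window was 95.7% identical to that of Ifi214, which does hold a match. Aligned to it, the Ifi209 sequence differed within the 9 letters by G1T (Ifi214 base first, counted from 1 at the first letter of the match). A match is a description of these letters, and binding of a factor was not measured.

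Aim2, the cytosolic DNA sensor, had the lowest mean level of the 7 in each group. It was 0.839 and 1.62 TPM with saline, 2.37 and 3.37 TPM with AP and 0.934 and 1.38 TPM with polyI:C+AP. Both AP libraries were above the other 4, and the saline and polyI:C-pretreated ranges overlapped. At this level Aim2 rested on an estimated 4.27 to 31.8 reads per library.

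Ifi204, the IFI16 relative, had the highest mean level in both caerulein groups. It was 15.4 and 7.75 TPM with saline, 27.8 and 39.4 TPM with AP and 34.4 and 26.2 TPM with polyI:C+AP. All 4 caerulein libraries were above both saline libraries, and the caerulein groups overlapped.

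Ifi211 was 4.99 and 2.36 TPM with saline, 21.2 and 15.5 TPM with AP and 22.2 and 23.8 TPM with polyI:C+AP. No 2 groups overlapped, although 22.2 and 21.2 TPM lie close together. Ifi209 was 2.04 and 2.31 TPM with saline, 6.53 and 13.4 TPM with AP and 6.63 and 4.16 TPM with polyI:C+AP. Its highest value by far was in AP replicate 2, the library with the most Ms4a1, and the caerulein groups overlapped only just. The part of B cells in this value was not tested.

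Ifi207 was 18.6 and 6.68 TPM with saline, 19.6 and 20.4 TPM with AP and 19.8 and 11.8 TPM with polyI:C+AP. The saline libraries were far apart, and the higher one came near the AP values. Mndal, named for its likeness to the myeloid nuclear differentiation antigen, was 6.54 and 4.16 TPM with saline, 6.94 and 12.6 TPM with AP and 11.6 and 8.44 TPM with polyI:C+AP. Ifi203 was 3.55 and 2.14 TPM, 3.62 and 5.68 TPM, and 8.30 and 5.15 TPM in the same order. For both genes, AP replicate 1 lay just above the higher saline library.

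**Figure D2:**
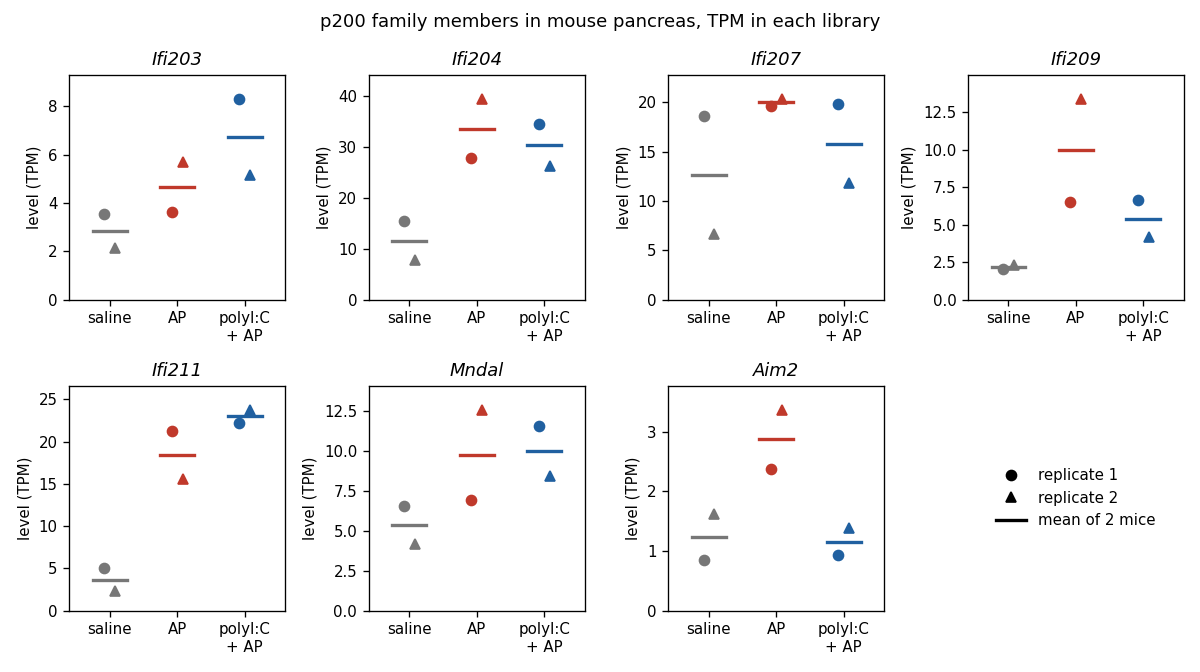
Level of each p200 member (TPM, linear axis from 0) by group (saline, AP and polyI:C + AP). Circles are replicate 1, triangles replicate 2 and bars the mean of 2 mice. Aim2 had a mean of 1.23 TPM in the saline and 1.16 TPM in the polyI:C+AP mice, and Ifi211 had its highest mean, 23.0 TPM, in the polyI:C+AP mice.

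TPM values are scaled for length, so levels can be set side by side between genes where reads from the whole length can be counted. Of the members, Ifi211 shares most sequence with other genes, so its place in the orders below is uncertain. In the saline mice, the means ran from Ifi207 (12.6 TPM) through Ifi204 (11.6 TPM), Mndal (5.35 TPM), Ifi211 (3.67 TPM), Ifi203 (2.85 TPM) and Ifi209 (2.17 TPM) to Aim2 (1.23 TPM). Only the steps from Ifi204 to Mndal and from Ifi209 to Aim2 were free of overlap between their 2 libraries. In the AP mice, Ifi204 (33.6 TPM) was followed by Ifi207 and Ifi211 (18.4 TPM), whose ranges overlapped, then Ifi209 (9.95 TPM) and Mndal (9.75 TPM), which overlapped as well, then Ifi203 and Aim2. In the polyI:C+AP mice, the order was Ifi204, Ifi211, Ifi207, Mndal, Ifi203, Ifi209 and Aim2, and Ifi203 and Ifi209 were the only neighbours with overlapping ranges.

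The summed level of the 7 members was 51.9 and 27.0 TPM with saline, 88.1 and 110 TPM with AP and 104 and 80.9 TPM with polyI:C+AP. Every caerulein library was above both saline libraries, and the caerulein groups overlapped. The make-up of the sum also differed by group. Ifi211 held 9.60% and 8.73% of it with saline, 24.1% and 14.1% with AP and 21.4% and 29.4% with polyI:C+AP. These shares are uncertain for the sequence that Ifi211 has in common with Ifi205 and Ifi204. Ifi207 held 35.8% and 24.7% in the saline mice and 14.6% to 22.3% in the other 4 libraries. The share of Ifi204 stayed between 28.7% and 35.8% in all 6.

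Caerulein alone raised 3 of the 7 p200 members. In AP against saline mice, Ifi211, Ifi209 and Ifi204 passed the threshold of an adjusted p of at most 0.05 and a change of at least 2-fold (limma on log2(TPM + 0.5), Benjamini-Hochberg over the 16814 genes tested). None of the 7 fell. Ifi211, whose level is uncertain for the sequence it shares with Ifi205 and Ifi204, rose 4.72-fold, with a log2 fold change of 2.24 ± 0.35 (SE, adjusted p = 0.00298). The log2 fold change was 1.89 ± 0.40 for Ifi209 (adjusted p = 0.00933) and 1.55 ± 0.34 for Ifi204 (adjusted p = 0.0106). In the saline mice, Ifi211 rested on an estimated 13.0 and 5.02 reads and Ifi209 on 10.5 and 9.8 reads, so both baselines were thin. Fold changes on this scale understate the change of low genes such as Aim2.

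Over all genes tested, 18.2% were raised and 4.03% lowered, beside 3 raised and 0 lowered of the 7 members. Both AP libraries were above both saline libraries for 7 of 7 members and for 52.6% of all genes. Ifi207 (0.81 ± 0.46, adjusted p = 0.212), Mndal (0.78 ± 0.36, adjusted p = 0.129), Ifi203 (0.62 ± 0.35, adjusted p = 0.204) and Aim2 (0.98 ± 0.47, adjusted p = 0.141) did not pass. Ifi207 depended on the saline library used. It passed without saline replicate 1 (1.51, adjusted p = 0.0302) and stood at 0.10 without saline replicate 2. The median log2 fold change was 0.98 over the members and 0.45 over all genes. With median-of-ratios scaling, which brings the median of all genes to 0.05, the members' median was 0.66 and Ifi211, Ifi209 and Ifi204 still passed. Ifi211 lost its call without AP replicate 1 (adjusted p = 0.0601). Ifi209 lost it with voom (adjusted p = 0.0730), without saline replicate 1 (0.0629), saline replicate 2 (0.0525) or AP replicate 2 (0.108). Ifi204 lost it without AP replicate 1 (adjusted p = 0.0679), AP replicate 2 (0.131) or polyI:C+AP replicate 1 (0.0582).

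No change of a p200 member with polyI:C was detectable beyond the level reached with caerulein. In polyI:C+AP against AP mice, 0 of 7 members passed with limma, 0 reached an unadjusted p under 0.05, and 0 passed with voom on estimated reads. Over all genes, 0.44% were raised and 0.404% lowered, so few genes passed at all. Aim2 had the largest difference, a log2 fold change of -1.02 ± 0.47 (adjusted p = 0.406), with a 95% interval from -2.14 to 0.10. Its polyI:C-pretreated libraries were both below both AP libraries, as was the case for 22.1% of all genes.

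For Ifi209 the log2 difference was -0.78 ± 0.40 (adjusted p = 0.460). Ifi211 was the member whose polyI:C-pretreated libraries were both above both AP libraries, which held for 27.7% of all genes, at 0.33 ± 0.35 (adjusted p = 0.747). Ifi203 stood at 0.48 ± 0.35, Mndal at 0.08 ± 0.36, Ifi204 at -0.14 ± 0.34 and Ifi207 at -0.37 ± 0.46. The 95% interval of Ifi204, the most precise of the 7, ran from -0.94 to 0.67, so differences within these bounds could not be resolved with 2 mice per group. Without AP replicate 1, AP replicate 2 or polyI:C+AP replicate 2, no gene of the whole table passed between these groups, and all calls between them given here are then lost. The median over the members was -0.14 and that over all genes 0.04.

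**Figure D3:**
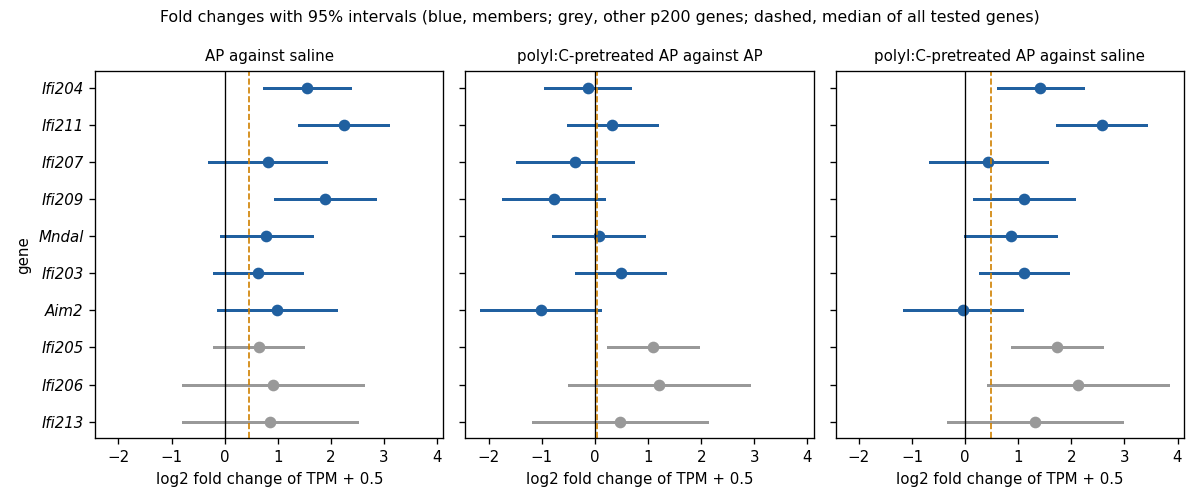
Log2 fold changes of TPM + 0.5 for the 7 members (blue) and the 3 other tested p200 genes (grey) in the 3 comparisons, with 95% intervals. The dashed line is the median of all tested genes, at 0.45, 0.04 and 0.48. In the middle panel every member's interval includes 0.

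Compared with saline mice, polyI:C+AP mice had higher Ifi211, Ifi204 and Ifi203. Ifi211 rose 5.93-fold (log2 fold change 2.57 ± 0.35, limma adjusted p = 0.00187). The log2 fold change was 1.41 ± 0.34 for Ifi204 (adjusted p = 0.0162) and 1.11 ± 0.35 for Ifi203 (adjusted p = 0.0444). Over all genes, 16.9% were raised and 2.97% lowered, beside 3 raised and 0 lowered of 7 members.

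Both polyI:C-pretreated libraries were above both saline libraries for 5 of 7 members, the exceptions being Ifi207 and Aim2, and for 54.4% of all genes. Ifi209 had a log2 difference of 1.11 ± 0.40 (adjusted p = 0.0654), Mndal of 0.86 ± 0.36 (adjusted p = 0.103), Ifi207 of 0.43 ± 0.46 (adjusted p = 0.495) and Aim2 of -0.04 ± 0.47 (adjusted p = 0.962). Ifi211 kept its call under every alternative run. Ifi203 lost its call whichever library was left out, with log2 fold changes from 0.79 to 1.43. It also lost it under each other alternative that tested it but another pseudocount and the unadjusted p. With a higher minimum mean it was not tested, since its mean over the 6 libraries was 4.74 TPM. With median-of-ratios scaling, with voom, or without any 1 library other than saline replicate 1, the count fell to 1. The 3 comparisons share mice, so their fold changes are not independent of each other. An exact permutation test of 2 against 2 samples cannot give a two-sided p below 0.333.

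Of the other 6 p200 genes of the locus, 3 could be tested and Ifi205 passed in 1 comparison. Ifi205 was 7.99 and 3.45 TPM with saline, 7.85 and 9.24 TPM with AP and 19.9 and 17.6 TPM with polyI:C+AP, whose libraries were above the other 4. It rose against saline (1.73 ± 0.35, limma adjusted p = 0.00870), a call that was lost without AP replicate 1 or either polyI:C+AP library. Without saline replicate 1 it also passed in AP against saline mice (1.19, adjusted p = 0.0130). Against AP its log2 difference was 1.09 ± 0.35 (adjusted p = 0.238 with limma and 0.0491 with voom). Ifi205 is the gene that shares most sequence with Ifi211.

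Ifi206 was 0 and 0.242 TPM with saline, 0.404 and 0.958 TPM with AP and 4.06 and 1.05 TPM with polyI:C+AP. Ifi213 ranged from 0.360 to 3.12 TPM, and neither gene passed in any comparison. Ifi202b, Ifi208 and Ifi214 had means under 1 TPM and were not tested.

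**Figure D4:**
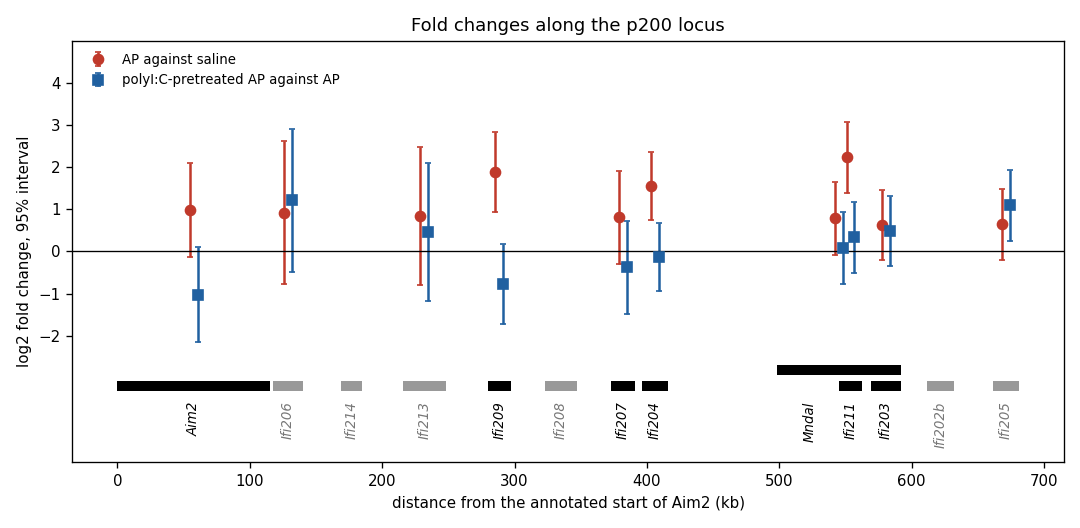
Log2 fold changes with 95% intervals of the 10 tested p200 genes, by distance from the annotated start of Aim2 (kb). Circles are AP against saline and squares polyI:C+AP against AP. Black bars mark members, grey bars the other p200 genes, and the bar of Mndal is drawn above those of Ifi211 and Ifi203. The lowest squares are those of Aim2 (-1.02) and Ifi209 (-0.78) and the highest those of Ifi206 (1.21), next to Aim2, and Ifi205 (1.09), at the right end, so the squares follow no order along the cluster.

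Over the 6 libraries, the members with the most similar profiles were Ifi203 and Mndal. The root mean square distance between their centred log2(TPM + 0.5) values was 0.190, against 0.352 to 1.19 for the other 20 pairs. Ifi203 and Mndal are also the pair with near-identical promoter windows and the pair that shares exonic bases. The Ifi203 window of this pair also covers the upstream end of the annotated Mndal span, at chr1:173942491. The pair with the next most similar promoters, Ifi207 and Ifi211, had a distance of 0.940, the next to largest. The most distant pair was Ifi211 and Aim2. These distances rest on 6 points that share the same libraries and depth, and they are given as a description.

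The genes outside the family whose profile lay closest to the mean profile of the 7 members were Ifnar2, a subunit of the type I interferon receptor, Tppp3, Fam216a, Wdr91 and Adam15. Their distances ran from 0.0768 to 0.101, among 12031 genes whose mean reached 5 TPM and a median distance of 0.516. Ifnar2 was 6.51 and 4.85 TPM with saline, 12.7 and 15.6 TPM with AP and 12.7 and 11.4 TPM with polyI:C+AP. A distance of at most 0.3 was reached by 1572 of these genes, so a course of this kind was common.

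Several genes of a list for DNA sensing and interferon induction rose with caerulein. For this and the following lists, the shares over all genes stand beside the counts. In AP against saline mice, 18.2% were raised and 4.03% lowered. In polyI:C+AP against AP mice, these shares were 0.44% and 0.404%. In polyI:C+AP against saline mice, they were 16.9% and 2.97%. Of 8 tested genes for DNA sensing and interferon induction, 5 rose and 0 fell in AP against saline mice, led by Tmem173 (2.41 on the log2 scale, limma adjusted p = 0.000177), Irf7 (2.00) and Zbp1 (1.55). Tmem173, the Sting adaptor, was 4.76 and 4.39 TPM with saline, 26.8 and 26.0 TPM with AP and 13.9 and 12.8 TPM with polyI:C+AP. The 3 groups did not overlap. The log2 difference from AP was -0.96, which did not pass with limma (adjusted p = 0.0656) and passed with voom (-1.02, adjusted p = 0.0155). Irf7, the interferon regulatory factor of the amplification loop, and Zbp1, a Z-nucleic acid sensor, were the 2 genes of this list that polyI:C raised over AP, by 4.01 (adjusted p = 0.00371) and 2.20 (adjusted p = 0.0332). Against saline, 5 of the 8 rose in the polyI:C+AP mice, with Irf7 at 6.01, Zbp1 at 3.75 and Tmem173 at 1.45. With voom 3 genes of this list passed in AP against saline mice, and with median-of-ratios scaling 3 passed in the last comparison.

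Among inflammasome partners and products, 5 of 12 tested genes rose and 0 fell in AP against saline mice. Mefv, another pyrin protein, was listed at 0 in both saline mice and at 3.60 and 6.14 TPM in the AP mice. Il1b, the cytokine that Casp1 matures, rose by 2.74 (adjusted p = 0.00959) and Nlrp1b, an inflammasome receptor, by 2.15 (adjusted p = 0.0150). Without AP replicate 1 this count was 2, without AP replicate 2 it was 1 and without saline replicate 2 it was 3. Pycard, the adaptor of Aim2, was 9.05 and 9.74 TPM with saline and 12.4 to 23.7 TPM in the other 4 libraries, highest in polyI:C+AP replicate 2, the library with intestinal transcripts. It passed in no comparison with all libraries, but against saline it passed without polyI:C+AP replicate 1 (1.29, adjusted p = 0.0260). Pycard was named for its role beside Aim2, after its values were seen.

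Between polyI:C+AP and AP mice, 0 of these 12 genes passed with limma, 1 reached the fold change with an unadjusted p under 0.05, and 1 passed with voom. Against saline, Il18 (3.77, adjusted p = 0.0301), Gsdmd (2.00, adjusted p = 0.0442) and Casp8 (1.74, adjusted p = 0.000473) rose in the polyI:C+AP mice. That made 3 of the 12 genes, not far from the 16.9% raised over all genes. Il18, another cytokine matured by Casp1, reached 34.7 TPM and Gsdmd, the pore former of pyroptosis, 76.2 TPM in polyI:C+AP replicate 2. Without that library neither passed (adjusted p = 0.241 and 0.266), and Casp8 remained. With voom or median-of-ratios scaling, too, Casp8 was the 1 gene that passed. Leaving out saline replicate 1, AP replicate 1 or AP replicate 2 also left 1 gene of this list past the threshold.

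Among interferon receptors and their signalling genes, 9 of 11 tested genes rose and 0 fell in AP against saline mice. The list is mainly of type I interferon but holds Ifngr1 and Ifngr2, the receptor subunits for type II interferon, and without these 7 of 9 rose. The rises were led by Usp18 (2.33, adjusted p = 0.0438), a brake on the receptor, and the transcription factors Irf1 (1.98) and Irf9 (1.81). With median-of-ratios scaling 5 of them passed. None passed in polyI:C+AP against AP mice with limma, while 2 passed with voom and 2 reached the fold change with an unadjusted p under 0.05. Against saline 9 of 11 rose in the polyI:C+AP mice, and 7 of 9 without the type II receptor genes, with Usp18 at 4.89, Irf9 at 2.80 and Stat2 at 2.55.

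Reference interferon-stimulated genes rose with caerulein, and 10 of 25 rose further with polyI:C. Of the 25 reference genes, 19 rose in AP against saline mice, led by Rsad2 (4.39), Oas1a (2.84) and Rtp4 (2.70). The 10 raised in polyI:C+AP against AP mice were Ifit1 (3.23), Ifi44 (3.08), Oasl2 (2.94), Isg15 (2.81), Oas1a (2.66), Ifit3 (2.49), Bst2 (2.39), Gbp3 (2.37), Rtp4 (2.04) and Xaf1 (1.95). Oas1a, which makes the activator of RNase L, was 2.91 and 1.79 TPM with saline, 15.1 and 25.1 TPM with AP and 123 and 129 TPM with polyI:C+AP. Against saline 25 of 25 rose, with Oas1a at 5.50, Rsad2 at 5.24 and Rtp4 at 4.74.

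The median log2 fold changes of the reference genes were 1.71, 1.43 and 3.80 in AP against saline, polyI:C+AP against AP, and polyI:C+AP against saline mice. Those of the p200 members were 0.98, -0.14 and 1.11, and those of all genes 0.45, 0.04 and 0.48. The difference between the lists was not tested. Leaving out either AP library or either polyI:C-pretreated library brought the count of 10 to 0. Without AP replicate 2, the count of 19 in AP against saline was 12, and without saline replicate 1 and saline replicate 2 the count of 10 was 4 and 3.

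**Figure D5:**
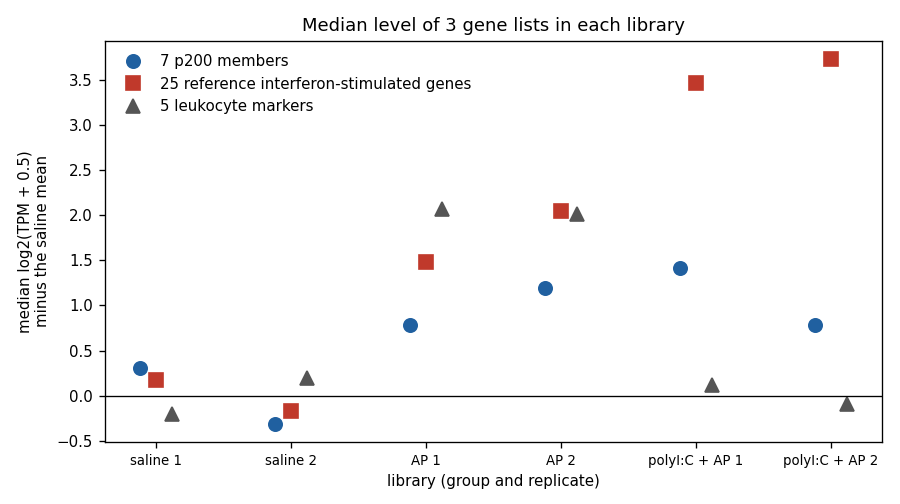
Median log2(TPM + 0.5) of each list in each library, relative to the gene's mean in the saline mice, for the 7 p200 members, 25 reference interferon-stimulated genes and 5 leukocyte markers. The reference genes are highest in the polyI:C+AP mice (3.47 and 3.73), the leukocyte markers in the AP mice (2.07 and 2.01), and the members lie between 0.78 and 1.42 in all 4 caerulein libraries.

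Leukocyte markers rose with caerulein, and some of them fell with polyI:C. The summed level of 5 leukocyte markers was 42.1 and 53.3 TPM with saline, 188 and 260 TPM with AP and 48.9 and 52.9 TPM with polyI:C+AP. All 5 rose in AP against saline mice (median log2 fold change 2.04). Against AP, 2 of 5 fell with polyI:C (Coro1a by 2.35, adjusted p = 0.00519, and Cd53 by 2.17, adjusted p = 0.0161), and the median was -2.17. The sum over 14 macrophage and monocyte markers was 768 and 497 TPM, 2860 and 3306 TPM, and 833 and 685 TPM in the same order of groups, with 11 of 14 raised in AP mice and 7 of 14 lowered with polyI:C. Lyz2 made up much of these sums, and the other 13 markers summed to 324 and 189 TPM with saline, 969 and 1188 TPM with AP and 630 and 566 TPM with polyI:C+AP. One of them, Cd14, was at 218 and 222 TPM with AP and 216 and 209 TPM with polyI:C+AP.

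The p200 sums of the polyI:C+AP and AP mice overlapped, while the leukocyte and macrophage sums of the polyI:C+AP mice lay under those of the AP mice, also without Lyz2. No marker of either list was at 0 in every library. Of 8 T and NK cell markers, Gzma, a protease of killer cells, was at 26.9 and 47.0 TPM in the polyI:C+AP mice and listed at 0 in the other 4 libraries. The other 7 summed to 4.34 and 5.25 TPM in the polyI:C+AP mice, within the range of 1.68 to 6.56 TPM elsewhere. The part of these cells in the p200 levels was not tested. In bulk tissue, fewer cells of a type and less RNA per cell cannot be told apart. The 7 listed neutrophil markers summed to 16.6 and 5.15 TPM with saline, 69.4 and 59.9 TPM with AP and 44.3 and 20.9 TPM with polyI:C+AP. Of the 5 tested, 0 were lowered in polyI:C+AP against AP mice. By flow cytometry and MPO staining, the paper reported fewer neutrophils in polyI:C-pretreated AP mice than in AP mice. By flow cytometry, it reported an unaffected macrophage percentage. Its RNA results also name Ccr2 and Mrc1 among the genes induced in AP and suppressed by polyI:C.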

How the data were processed

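Pancreas RNA of 6 mice was sequenced by the authors, who trimmed reads with Trimmomatic, aligned them to mm10 with STAR, counted them per gene with htseq-count and tested with DESeq2. The authors deposited TPM values per gene. How counts became TPM is not given in the sources used here. The methods name a TruSeq stranded mRNA kit, while the labels name this kit and also ribosomal RNA depletion with a NEBNext directional kit. Both kits mark strand, and which one served is not given in the sources used here, nor is the strand setting of the counting. The labels put all libraries in 1 sequencing lane.

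TPM was used without further scaling. Groups came from the sample titles. Of 22556 identifiers, 22490 were found in GENCODE M21. Genes averaging 1 TPM or more (16814) were tested with limma 3.58.1 (R 4.3.3) on log2(TPM + 0.5), 1 coefficient per group, with a variance prior following mean TPM × exon length and Benjamini-Hochberg adjustment. A change was called at an adjusted p of at most 0.05 and at least 2-fold. The fit was tested on simulated data in which few genes changed, as many raised as lowered. Such data do not cover the wider shift between AP and saline mice. Reads of the listed genes in each library were estimated from the spacing of low TPM values. Of these values, 51.1% to 62.3% lay within 0.1 of a whole number of reads, against 19.3% to 20.3% with gene lengths shuffled. As this is not nearly all values, the estimated reads served only an alternative with voom.

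The members and gene lists were chosen with earlier results of these data known. Named were every member, the list genes called between polyI:C+AP and AP mice, the 3 largest called rises and falls per list against saline, and the 5 nearest profiles. Other names are marked in the text or are cell markers. Results were recomputed with another pseudocount, filter, scaling, prior or test, with a replicate block and without each library.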

Additional observations from a re-analysis of the deposited data

How the results depend on the processing

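Beside the 3 members that passed in AP against saline mice, 2 passed with voom and 1 to 3 with 1 library left out. In polyI:C+AP against AP mice, 0 passed under any alternative, and the range without 1 library was 0 to 0. That range says little, since without AP replicate 1, AP replicate 2 or polyI:C+AP replicate 2 no gene of the whole table passed. Beside the 3 members in polyI:C+AP against saline mice, 1 passed with median-of-ratios scaling, 1 with voom, and 1 to 2 with 1 library left out. With the replicate number as a block, 2 passed, and Ifi203 lost its call (adjusted p = 0.0533). The block changed no other member's call. Deviations of same-numbered samples were uncorrelated (0.0075, -0.0039 and 0.035 for the 3 pairs of groups), and the labels do not say that the numbers mark shared handling.

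Directions turned only where a difference was within its error. Between polyI:C+AP and AP mice, leaving out 1 library moved Ifi204 from -0.39 to 0.11, with 0.06 without polyI:C+AP replicate 2. For Mndal the range was -0.33 to 0.48, with -0.14 without polyI:C+AP replicate 1, and voom gave -0.014. Against saline, Ifi207 ran from -0.27 to 1.14 and was -0.0041 with median-of-ratios scaling, and Aim2 ran from -0.37 to 0.29, with 0.16 without polyI:C+AP replicate 1. In AP against saline mice, 3053 genes were raised and 677 lowered, and with median-of-ratios scaling 1565 and 1225. In polyI:C+AP against AP mice, the count of all genes called was 142, with 90 without a filter, 28 with a prior on the mean log2 value and 316 with voom. Of the reference interferon-stimulated genes, 10 passed there, with 5, 2 and 14 under the same settings and 6 in a fit of those groups alone. With 2 mice per group, the 95% intervals of the members reached from 0.80 (Ifi204) to 1.10 (Ifi207) on the log2 scale to either side, and slightly further for Aim2, and smaller changes could not be resolved.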
